A study of Homo sapiens with 6 samples.

Results

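This account covers 46 genes of the G1/S transition and of DNA replication, read from RNA sequencing of 2 human pancreatic cancer cell lines. The genes were taken by symbol from a list that was chosen with earlier results of these data known. Their TPM, an abundance scaled for transcript length and library size, was the sum over all transcripts of a gene after repeated lines of the deposited table were dropped. They are 46 of the 27408 genes in the table, and all 46 passed the filter of at least 5 TPM in at least 2 libraries, as did 11829 genes in all. The study set out to learn what ESRP1 and ESRP2, epithelial RNA-binding regulators of splicing, do in pancreatic cancer cells. Each library stands alone for its group, so a line's 3 libraries are 3 constructs and not repeats of 1 culture.

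The 6 groups, with 1 library each, were PANC-1 overexpressing ESRP1, PANC-1 overexpressing ESRP2, PANC-1 with LPCX, MIA-PaCa2 overexpressing ESRP1, MIA-PaCa2 overexpressing ESRP2 and MIA-PaCa2 with LPCX. LPCX is named in the labels as the control genotype, and no group had a further treatment. PANC-1 and MIA-PaCa2 are established adherent lines from human pancreatic carcinomas, grown in serum-containing medium. The labels do not say whether the overexpressing cells were single clones or pools. ESRP1 reached 491 TPM in PANC-1 ESRP1 and 367 TPM in MIA-PaCa2 ESRP1, and was at most 0.261 TPM in the other 4 libraries. ESRP2 reached 308 TPM in PANC-1 ESRP2 and 197 TPM in MIA-PaCa2 ESRP2. It was already present in PANC-1, at 37.7 TPM with ESRP1 and 34.8 TPM with LPCX, and was at most 0.106 TPM in the other MIA-PaCa2 libraries.

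Markers of a carcinoma line were present in both lines, with some gaps. KRT19, a ductal keratin, lay between 366 and 502 TPM in PANC-1 and between 234 and 313 TPM in MIA-PaCa2. EPCAM, an epithelial adhesion protein, was 24.3 to 28.2 TPM in PANC-1 and was listed at 0 in every MIA-PaCa2 library. The 7 epithelial and ductal markers summed to 1916 to 2121 TPM in PANC-1 and 3529 to 4383 TPM in MIA-PaCa2. By count the order was the reverse, with 5 or 6 of the 7 at 5 TPM or more in PANC-1 and 4 in MIA-PaCa2. The 4 mesenchymal markers, VIM, ZEB1, CDH2 and FN1, summed to more, 4194 to 4805 TPM in PANC-1 and 5545 to 5645 TPM in MIA-PaCa2. Of these 4, 3 were at 5 TPM or more in PANC-1 and 2 in MIA-PaCa2. The sums thus rest on few abundant genes and do not rank the lines. The 7 acinar and islet markers summed to at most 0.729 TPM in PANC-1 and were all listed at 0 in MIA-PaCa2. The 6 leukocyte markers summed to 296 to 365 TPM in PANC-1 and 27.5 to 34.7 TPM in MIA-PaCa2. Most of the PANC-1 sum was CD68, a lysosomal protein of macrophages that other cells also make, at 295 to 364 TPM, while PTPRC, the pan-leukocyte marker, was at most 0.563 TPM in any library. The 7 fibroblast and endothelial markers summed to 66.9 to 108 TPM in PANC-1, nearly all of it COL1A1, and to 2.76 to 5.73 TPM in MIA-PaCa2. The part of these markers in the differences between the lines was not tested. Transcripts with a noncoding RefSeq accession held 9.82% to 13.0% of the TPM in PANC-1 and 9.39% to 12.1% in MIA-PaCa2, with the highest share in PANC-1 LPCX. TPM keeps no read depth, so the depth behind each value is unknown.

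A cell copies its genome by loading and firing origins. The origin recognition complex, CDC6 and CDT1 load the ring of MCM2 to MCM7 onto DNA in G1. CDC45, the GINS complex and MCM10 turn that ring into the working helicase in S phase. DNA polymerase alpha-primase starts each strand, the clamp loader RFC places PCNA on it, and polymerases delta and epsilon extend it. RPA covers the exposed single strand, and FEN1 and LIG1 join the lagging-strand pieces. Many of these genes are known targets of E2F factors, which the retinoblastoma family holds in check until cyclin E and CDC25A activate CDK2.

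The upstream DNA of 5 genes is shown because their values carry the results below: UNG with its 2 start sites, MCM3 and MCM6 among the helicase subunits, and POLA1 and POLA2 as partners with opposite levels. Each stretch is the 200 bases before a start site, from RefSeq on GRCh38.p14, 5′ to 3′ on the gene's strand. Capitals mark E2F words, the letters TTTGGCGC, TTTCCCGC, TTTGCCGC and TTTCGCGC on either strand, with overlapping words merged. The stretches are UNG upstream start (chr12:109097397-109097596, plus strand), UNG downstream start (chr12:109097972-109098171, plus strand), MCM3 (chr6:52284743-52284942, minus strand), MCM6 (chr2:135876444-135876643, minus strand), POLA1 (chrX:24693718-24693917, plus strand) and POLA2 (chr11:65261762-65261961, plus strand).
UNG upstream start: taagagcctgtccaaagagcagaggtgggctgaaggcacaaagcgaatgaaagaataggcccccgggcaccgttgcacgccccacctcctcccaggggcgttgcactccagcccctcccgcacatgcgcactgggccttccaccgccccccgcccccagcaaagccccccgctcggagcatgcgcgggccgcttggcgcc
UNG downstream start: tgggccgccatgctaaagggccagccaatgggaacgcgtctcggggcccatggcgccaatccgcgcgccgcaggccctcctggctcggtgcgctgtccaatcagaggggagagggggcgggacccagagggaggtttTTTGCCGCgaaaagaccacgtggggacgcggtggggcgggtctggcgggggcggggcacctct
MCM3: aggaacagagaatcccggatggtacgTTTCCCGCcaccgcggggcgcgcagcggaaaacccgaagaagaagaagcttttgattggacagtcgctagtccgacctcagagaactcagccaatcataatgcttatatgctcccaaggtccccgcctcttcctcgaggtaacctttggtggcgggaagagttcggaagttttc
MCM6: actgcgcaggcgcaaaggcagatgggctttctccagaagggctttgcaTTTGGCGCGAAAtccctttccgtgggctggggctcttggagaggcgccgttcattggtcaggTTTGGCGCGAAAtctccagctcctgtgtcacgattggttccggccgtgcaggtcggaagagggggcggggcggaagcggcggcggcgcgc
POLA1: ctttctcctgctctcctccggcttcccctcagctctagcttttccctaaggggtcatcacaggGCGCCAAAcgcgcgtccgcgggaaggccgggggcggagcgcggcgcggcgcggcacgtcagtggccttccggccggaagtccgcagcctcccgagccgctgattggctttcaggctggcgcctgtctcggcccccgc
POLA2: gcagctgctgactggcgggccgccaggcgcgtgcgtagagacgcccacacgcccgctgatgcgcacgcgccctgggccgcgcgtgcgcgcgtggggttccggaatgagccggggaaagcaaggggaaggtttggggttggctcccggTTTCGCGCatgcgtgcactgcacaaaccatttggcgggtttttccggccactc

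Of the 46 genes, 38 had an entry in the promoter table, with 47 windows from 250 bases before to 50 after a start. MCM4, RPA3, GINS4, MCM5, RPA2, CCNE2, DSCC1 and POLD3 had none. An E2F word stood in 21 of the 47 windows, or 44.7%, each from a different gene. The same words stood in 1164 of all 35116 promoters in the table, or 3.31%, and in 5.20% of the promoters of tested genes. The CCAAT box, spelled CCAAT on either strand, stood in 57.4% of the 47 windows and in 34.6% of all promoters. The cell cycle homology region of G2/M genes, searched as TTTGAA or TTCGAA on either strand, stood in 4.26% of the 47 windows and in 16.4% of all promoters. MCM6 held 2 merged runs, POLA1 and POLA2 held 1 word each, and of the UNG starts the downstream window held a word and the upstream window held none. These are matches of letters, not measured binding.

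Levels spanned a wide range. In PANC-1 the highest means were those of TYMS, thymidylate synthase, at 314 ± 7.47 TPM, and of PCNA, the sliding clamp, at 313 ± 18.8 TPM (SD, n = 3 libraries). In MIA-PaCa2 they were those of PCNA at 341 ± 11.8 TPM and of MCM7 at 318 ± 5.84 TPM. At the low end GINS4 averaged 7.54 ± 0.527 TPM and POLA1 8.93 ± 0.561 TPM in PANC-1. In MIA-PaCa2 the lowest were CCNE2, cyclin E2, at 14.4 ± 0.692 TPM and DSCC1, a subunit of an alternative clamp loader, at 16.7 ± 0.795 TPM. Added up, the 46 genes held 3547, 3482 and 3164 TPM in PANC-1 with ESRP1, ESRP2 and LPCX, and 4157, 4013 and 3967 TPM in MIA-PaCa2 with the same constructs. The sums of the lines do not overlap, and in each line the LPCX library was the lowest. In MIA-PaCa2 the sums with ESRP2 and LPCX were close, and their order depends on the scaling. The log2 median ratio factors were 0.04 for MIA-PaCa2 ESRP2 and −0.04 for MIA-PaCa2 LPCX, which would turn that order around.

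**Figure D1:**
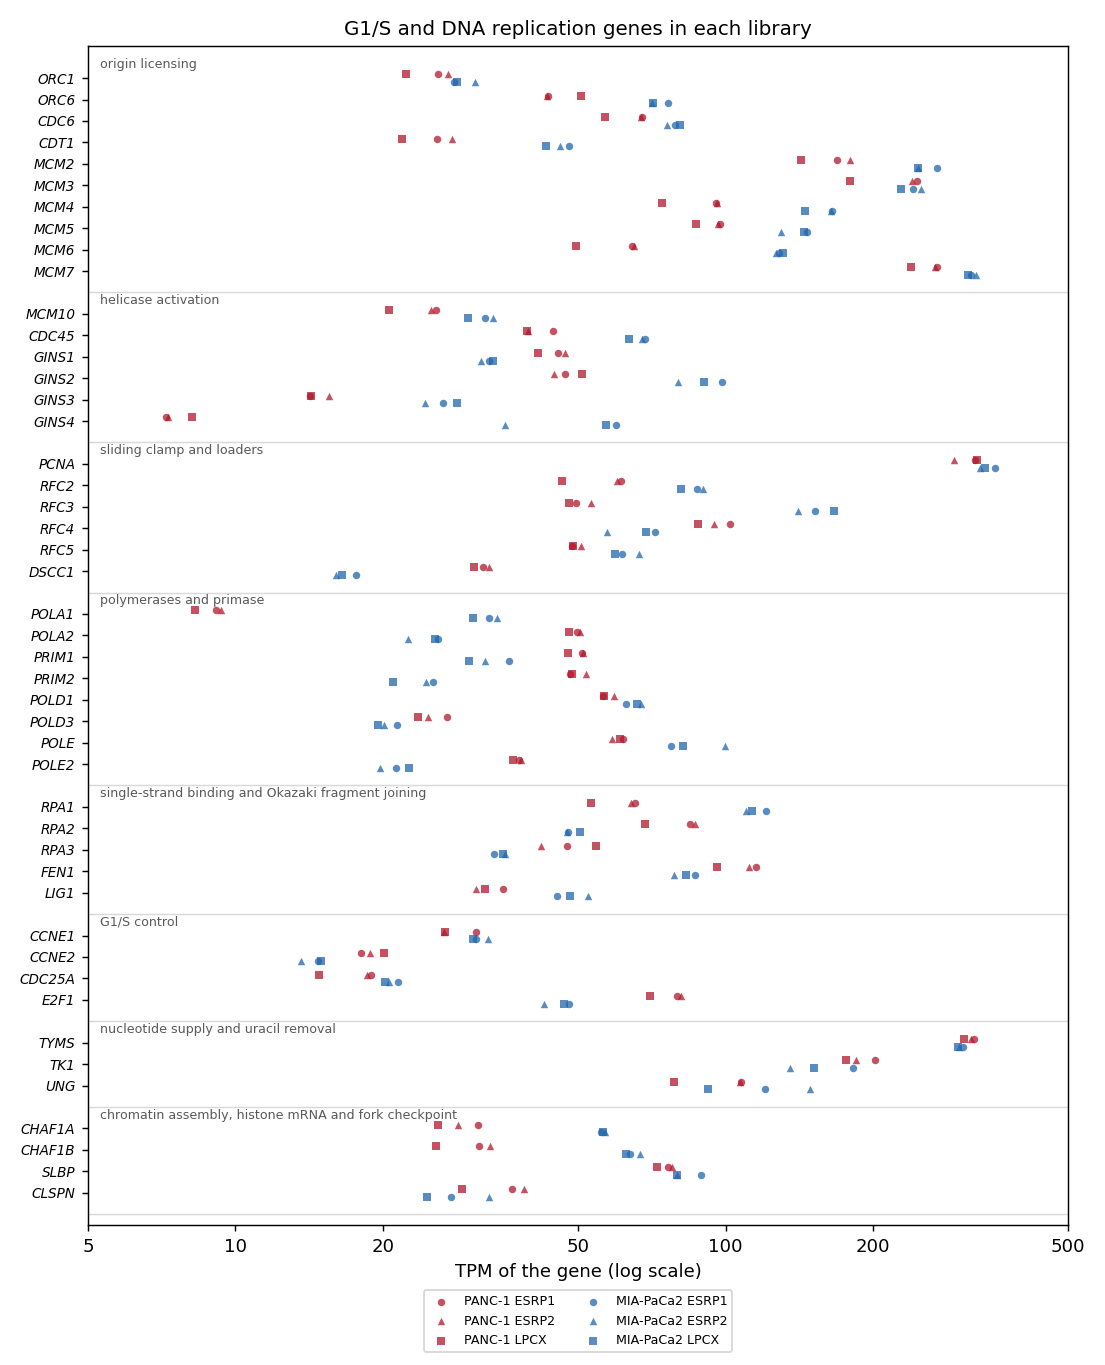
TPM of each of the 46 genes in the 6 libraries, on a log axis, with genes grouped by role. Red symbols are PANC-1 and blue symbols MIA-PaCa2, and circles, triangles and squares are ESRP1, ESRP2 and LPCX. GINS4 and POLA1 lie under 10 TPM in PANC-1 and at 30.5 TPM or more in MIA-PaCa2.

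Between the lines most of these genes differed, and in several complexes, though not in the MCM ring or CAF-1, subunits went opposite ways. Origin licensing and helicase genes were mostly lower in PANC-1, with GINS4 and MCM6 in front. The partner subunits POLA2, PRIM1, PRIM2, POLE2, RPA2 and GINS1 were higher in PANC-1, while POLA1, POLE, RPA1 and GINS4 were lower there. Past an adjusted p of 0.05 in limma, with construct as a term, 15 of the 46 genes were higher in PANC-1 and 26 were lower. Of all genes tested, 43.1% passed as higher and 35.6% as lower, 78.8% in either direction, so differing between the lines was common in these data. The median log2 difference, PANC-1 minus MIA-PaCa2, was −0.27 over the 46 genes and 0.08 over all genes tested. It was above 0 in 16 genes, where 53.9% of all genes were, and 41 had an unadjusted p under 0.05, where 80.1% did. In 14 genes every PANC-1 library lay above every MIA-PaCa2 library, and in 27 every one lay below, where 43.1% and 36.3% of all genes did. In bulk RNA, fewer cells in S phase and less RNA per cell cannot be told apart, nor can the line be told apart from anything else that sets these cultures apart.

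Of 10 origin licensing genes, 9 passed as lower in PANC-1 and none as higher. MCM6, a helicase subunit, was 64.3, 65.0 and 49.6 TPM in PANC-1 with ESRP1, ESRP2 and LPCX, and 128, 127 and 131 TPM in MIA-PaCa2. The groups do not overlap, and the log2 difference was −1.11 ± 0.0992 (SE, limma adjusted p = 0.000188). MCM4, another subunit, was 95.7, 96.1 and 74.3 TPM in PANC-1 and 165, 164 and 145 TPM in MIA-PaCa2, a log2 difference of −0.83 ± 0.0645. MCM2 and MCM5 differed by −0.64 and −0.58, and MCM7 by −0.30. MCM3 alone of the ring did not pass, at 221 ± 36.9 TPM in PANC-1 and 240 ± 11.2 TPM in MIA-PaCa2 (SD, n = 3 each; limma adjusted p = 0.219). The MCM6 to MCM3 ratio of TPM was 0.270 ± 0.00798 in PANC-1 and 0.538 ± 0.0342 in MIA-PaCa2. CDT1, the licensing factor that geminin restrains, was 25.1 ± 3.0 TPM in PANC-1 and 45.6 ± 2.45 TPM in MIA-PaCa2, a log2 difference of −0.84. ORC6 differed by −0.66, CDC6 by −0.30 and ORC1 by −0.21.

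Of 6 helicase activation genes, 5 passed as lower in PANC-1 and 1 as higher. GINS4 was 7.20, 7.28 and 8.15 TPM in PANC-1 with ESRP1, ESRP2 and LPCX, and 59.8, 35.4 and 57.1 TPM in MIA-PaCa2. The log2 difference of −2.57 ± 0.150 (SE, limma adjusted p = 3.85e-05) was the largest of the 46 genes. GINS1, a subunit of the same 4-part complex, was 45.5, 47.0 and 41.4 TPM in PANC-1 and 33.0, 31.7 and 33.5 TPM in MIA-PaCa2, and passed as higher by 0.43. The GINS4 to GINS1 ratio was 0.170 ± 0.0233 in PANC-1 and 1.55 ± 0.375 in MIA-PaCa2. GINS2 and GINS3 were lower in PANC-1, at log2 differences of −0.90 and −0.81, as were CDC45 at −0.68 and MCM10 at −0.42.

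Among the clamp and its loaders, RFC3 stood out. It was 49.5, 53.1 and 47.9 TPM in PANC-1 and 152, 141 and 166 TPM in MIA-PaCa2, a log2 difference of −1.59 ± 0.0861. RFC2 and RFC5, loader subunits too, were lower, at −0.62 and −0.33. RFC4, the remaining small subunit in the list, was higher in PANC-1 by 0.52, at 94.9 ± 7.17 TPM against 66.0 ± 7.65 TPM in MIA-PaCa2. DSCC1 was higher by 0.89. PCNA did not pass, at 323, 292 and 325 TPM in PANC-1 and 354, 331 and 338 TPM in MIA-PaCa2 (limma adjusted p = 0.102).

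The polymerase subunits were split too. POLA1 (chrX:24693918-24996986), the catalytic subunit of DNA polymerase alpha, was 9.14, 9.35 and 8.29 TPM in PANC-1 with ESRP1, ESRP2 and LPCX, and 32.9, 34.1 and 30.5 TPM in MIA-PaCa2. Every PANC-1 library was lower, and the log2 difference was −1.76 ± 0.0665 (SE, limma adjusted p = 9.7e-06). Its accessory subunit POLA2 was 49.7, 50.5 and 47.9 TPM in PANC-1 and 25.9, 22.5 and 25.5 TPM in MIA-PaCa2, a difference of 0.98 ± 0.0746. The primase subunits PRIM1 and PRIM2 were higher in PANC-1 by 0.60 and 1.04. The POLA1 to POLA2 ratio of TPM was thus 0.181 ± 0.00659 in PANC-1 and 1.33 ± 0.165 in MIA-PaCa2 (SD, n = 3 each). The same turn was seen in DNA polymerase epsilon, where catalytic POLE was lower, at −0.50, and POLE2 higher by 0.80 in PANC-1. The POLE to POLE2 ratio was 1.60 ± 0.0662 in PANC-1 and 4.10 ± 0.824 in MIA-PaCa2. In DNA polymerase delta, catalytic POLD1 was lower, at −0.19, and POLD3 higher by 0.29. Accessory subunits outside the listed genes went both ways, so the turn does not hold for every partner of a catalytic subunit. POLD2 of polymerase delta and POLE3 of polymerase epsilon were lower in PANC-1, at log2 differences of −0.52 and −0.46. POLD4 of polymerase delta and POLE4 of polymerase epsilon were higher there, by 1.22 and 0.64.

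The single-strand binding complex was split likewise. RPA1, its largest subunit, was 65.3, 64.3 and 53.0 TPM in PANC-1 and 121, 110 and 113 TPM in MIA-PaCa2, a log2 difference of −0.91 ± 0.0767. RPA2 was 84.8, 86.8 and 68.4 TPM in PANC-1 and 47.6, 47.5 and 50.4 TPM in MIA-PaCa2, a difference of 0.70 ± 0.0984. RPA3 was higher in PANC-1 by 0.44. The RPA1 to RPA2 ratio was 0.762 ± 0.0188 in PANC-1 and 2.36 ± 0.153 in MIA-PaCa2. FEN1, the flap nuclease, was higher in PANC-1 by 0.37, and LIG1, the ligase of lagging-strand pieces, was lower, at −0.55.

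Of the G1/S regulators, E2F1 was higher in PANC-1, at 77.0 ± 6.01 TPM against 45.8 ± 2.71 TPM in MIA-PaCa2, a log2 difference of 0.74 ± 0.0807. CCNE2 was higher by 0.37, and CDC25A, a phosphatase that activates CDK2, was lower, at −0.25. CCNE1, cyclin E1, did not pass, at 28.1 ± 2.42 TPM in PANC-1 and 31.4 ± 1.22 TPM in MIA-PaCa2 (SD, n = 3 each). TYMS did not pass either, at 314 ± 7.47 TPM in PANC-1 and 301 ± 3.43 TPM in MIA-PaCa2. TK1, thymidine kinase, was higher in PANC-1 by 0.27, and UNG, which removes uracil from DNA, was lower, at −0.29. CHAF1A and CHAF1B, subunits of the histone chaperone CAF-1, were both lower in PANC-1, at −0.96 and −1.08. Their ratio was 0.956 ± 0.0833 in PANC-1 and 0.872 ± 0.0236 in MIA-PaCa2, with libraries of the 2 lines overlapping. CLSPN, the claspin fork checkpoint adaptor, was higher by 0.29, and SLBP, which binds histone mRNA, did not pass.

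Leaving out 1 library ended the call for 7 of the 41 genes. ORC1 and POLD1 lost it without any of the 6 libraries, CDC25A without either line's ESRP1 or LPCX library, CDC6 without either LPCX library, POLD3 and CLSPN without either ESRP1 library, and TK1 without either ESRP2 library. ORC1, for instance, was −0.14 without PANC-1 LPCX (limma adjusted p = 0.209), and CDC6 was −0.20 without it. Exons of 20 of the 46 genes overlap exons of another gene in GENCODE 29, in 16 of them a gene on the other strand. TYMS shares up to 719 bases with ENOSF1 and CCNE2 up to 1628 bases with INTS8, and whether reads were assigned by strand is not given in the sources used here. PRIM2 is known to have near-identical partial copies in the genome, so its reads may be split and its level is uncertain.

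**Figure D2:**
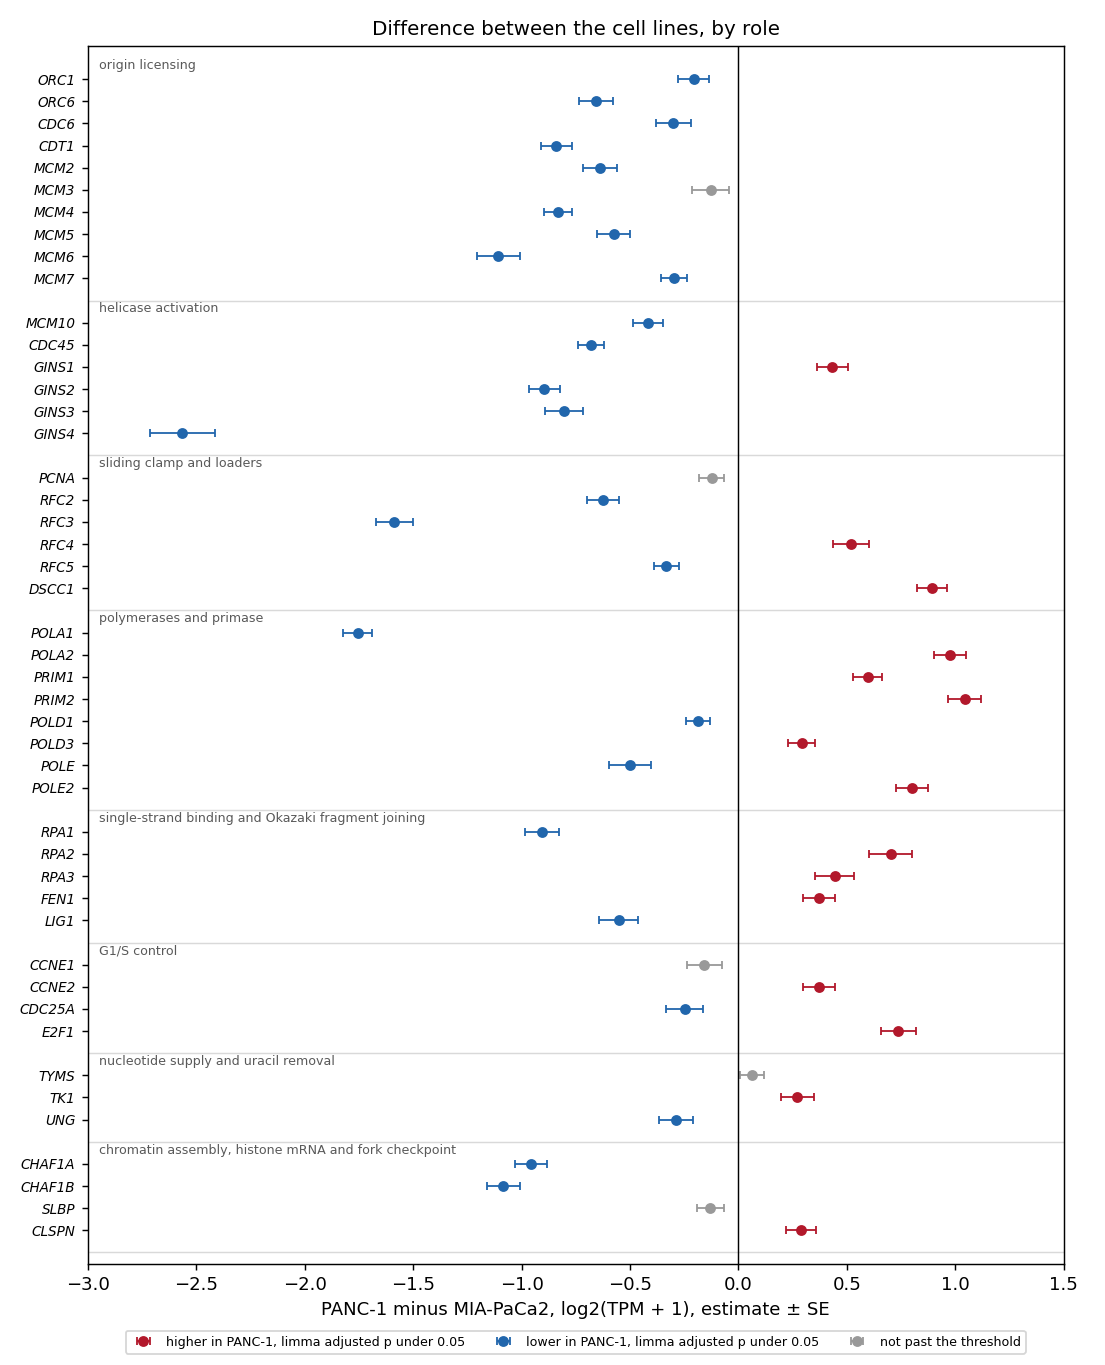
Difference between the lines for each gene, PANC-1 minus MIA-PaCa2 on the log2(TPM + 1) scale, with the SE from limma. Red points passed as higher in PANC-1 (15 genes), blue as lower (26) and grey did not pass (5), and the polymerase and RPA groups hold both colours.

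With the ESRP constructs over both lines, no gene of the 46 passed, and the lowest p-values belonged to UNG, CLSPN and MCM4. UNG, on chromosome 12, was 108 and 107 TPM in PANC-1 with ESRP1 and ESRP2, against 78.3 TPM with LPCX. In MIA-PaCa2 it was 120 and 149 TPM with ESRP1 and ESRP2, against 92.1 TPM with LPCX. All 4 ESRP libraries were above the LPCX library of their line, and the mean log2 change was 0.49 ± 0.0828 (SE, limma adjusted p = 0.357). CLSPN was 36.7 and 38.9 TPM in PANC-1 with ESRP1 and ESRP2, against 29.02 TPM with LPCX, and 27.6 and 32.9 TPM in MIA-PaCa2, against 24.6 TPM with LPCX. It was above LPCX in all 4 as well, with a mean change of 0.33 ± 0.0726 (limma adjusted p = 0.371). MCM4 had a mean change of 0.27 ± 0.0684 and MCM3 one of 0.27 ± 0.0913.

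Over both lines, 0 of 46 genes passed for ESRP1 against LPCX, where 0.00845% of all genes did, and 5 had an unadjusted p under 0.05, where 6.93% did. These were MCM3, MCM4, RFC2, UNG and CLSPN. For ESRP2 against LPCX, 0 of 46 passed, where 0.0169% of all genes did, and 6 had an unadjusted p under 0.05, where 13.8% did, the same 5 and MCM10. For the mean of both constructs 0 passed and 7 had such a p, where 0.0169% and 12.8% of all genes did. ESRP1 and ESRP2 share their LPCX libraries, so these 3 counts are not independent. A log2 change above 0 with ESRP1 was found in 37 genes, where 68.3% of all genes had one, with ESRP2 in 33, where 65.1% had one, and for the mean in 36, where 67.6% had one. The median change was 0.11 with ESRP1 and 0.06 with ESRP2, and over all genes tested 0.06 with either. Without PANC-1 LPCX the median with ESRP1 was 0.04, as over all genes, and 1 gene in place of 5 had an unadjusted p under 0.05. Without PANC-1 ESRP1 none had one, without MIA-PaCa2 ESRP1 3 had, and without MIA-PaCa2 LPCX 10 had. With ESRP2 the median was 0.02 and 2 genes had such a p without PANC-1 LPCX, and 3 had without MIA-PaCa2 ESRP1. Without PANC-1 ESRP2 the ESRP2 median was 0.03, with 4 such genes and 27 above 0, and without MIA-PaCa2 ESRP2 it was 0.12.

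Within PANC-1, 7 of 46 genes were higher with ESRP1 than with LPCX by 0.32 or more on the log2(TPM + 1) scale, where 6.12% of all genes measured were, and 0 were that much lower, where 4.91% were. They were MCM3, MCM4, MCM6, RFC2, CDC25A, UNG and CLSPN. With ESRP2, 10 were that much higher, where 9.24% of all genes were, and 1 was lower, where 7.76% were. These 10 were CDT1, MCM2, MCM3, MCM4, MCM6, RFC2, RPA2, UNG, CHAF1B and CLSPN, and the lower one was RPA3. With 1 library a group these are ratios with no test, and with coding transcripts only the higher genes numbered 3 with ESRP1 and 4 with ESRP2. The share of all genes in that setting is not given here. Ratios above 1 were found for 36 genes with ESRP1 and 37 with ESRP2, where 68.8% and 67.2% of all genes had one. The median log2 ratio was 0.17 with ESRP1 and 0.12 with ESRP2, against 0.09 and 0.10 over all genes measured. By role, the origin licensing genes held 3 of the 7 with ESRP1 and 5 of the 10 with ESRP2, while none of the 8 polymerase and primase genes was past that step with either. The 21 genes with an E2F word had medians of 0.13 with ESRP1 and 0.16 with ESRP2, and the 17 listed promoter genes without one had 0.20 and 0.10.

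In PANC-1 all 6 subunits of the MCM ring were above LPCX with either ESRP. MCM3 was 246 and 240 TPM with ESRP1 and ESRP2, against 179 TPM with LPCX, log2 ratios of 0.46 and 0.42. MCM6 was 64.3 and 65.0 TPM, against 49.6 TPM with LPCX, ratios of 0.37 and 0.38. MCM2 was 169 and 180 TPM, against 143 TPM with LPCX. MCM5 and MCM7, at ratios of 0.15 to 0.18, were nearer to the median of all genes. The 6 subunits summed to 942 and 944 TPM with ESRP1 and ESRP2, against 772 TPM with LPCX. RFC2, a loader subunit, was 61.1 and 60.1 TPM, against 46.5 TPM with LPCX. RPA3, the smallest RPA subunit, was 47.4 and 41.9 TPM, against 54.4 TPM with LPCX, and ORC6 was 43.5 and 43.3 TPM, against 50.6 TPM. Both comparisons rest on the same LPCX library, which also held the largest share of noncoding transcripts. When 2 entries among those, MIR4461 and MIR6723, were left out, an alternative chosen after seeing the data, the medians were 0.14 with ESRP1 and 0.10 with ESRP2, against 0.05 and 0.07 over all genes measured.

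Within MIA-PaCa2 few genes were past that step. With ESRP1, 1 of 46 genes was higher than with LPCX by 0.32 or more, where 3.95% of all genes were, and 0 were lower, where 3.85% were. That gene was UNG. With ESRP2, 2 genes were higher, UNG and CLSPN, where 8.07% of all genes were, and 1 was lower, GINS4, where 5.9% were. GINS4 was 35.4 TPM with ESRP2, against 57.1 TPM with LPCX, and 59.8 TPM with ESRP1. Its log2 ratio of −0.67 was the lowest of the 46 genes in any of the 4 comparisons, and no ratio as large was found for the other GINS subunits, at −0.08 to −0.21. The 6 MCM subunits summed to 1268 and 1242 TPM with ESRP1 and ESRP2, against 1208 TPM with LPCX. The median log2 ratio of the 46 genes was 0.06 with ESRP1 and 0.01 with ESRP2, against 0.04 and 0.05 over all genes measured. Ratios above 1 were found for 32 genes with ESRP1, where 61.7% of all genes had one, and for 24 with ESRP2, where 60.2% did. After scaling the libraries by median ratios the ESRP2 median was −0.07, against −0.04 over all genes.

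Taking either ESRP together against LPCX within each line, in a fit added after seeing the data, none of the 46 genes passed in PANC-1 or in MIA-PaCa2. In PANC-1, 17 genes had an unadjusted p under 0.05, where 13.2% of all genes had one, and in MIA-PaCa2 2 genes had, MCM4 and UNG, where 3.96% did. Of the 17, only ORC6 and RPA3 were negative, at −0.22 and −0.28. The positive ones included MCM3 at 0.44, UNG at 0.45, MCM6 at 0.38 and RFC2 at 0.38. The difference between the lines passed for 0 of 46 genes and had an unadjusted p under 0.05 for 4, where 4.12% of all genes did. These were CDC6, MCM3, MCM6 and RPA2. Whether the ESRP effect differs between PANC-1 and MIA-PaCa2 was therefore not established for any gene. This fit took the ESRP1 and ESRP2 libraries of a line as repeats of a single condition, beside a single LPCX library. The spread behind its p-values came from ESRP1 set against ESRP2 within each line, not from repeat cultures. Across 10356 to 10699 genes, all read from the same pair of libraries, transcript length had a rank correlation with the log2 ratio of 0.265 and 0.308 in PANC-1 with ESRP1 and ESRP2 and 0.0978 and 0.316 in MIA-PaCa2. Over the 44 listed genes with a length it was 0.233, 0.313, −0.0459 and 0.304. Genes are not independent replicates, and the part of length in the results was not tested.

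**Figure D3:**
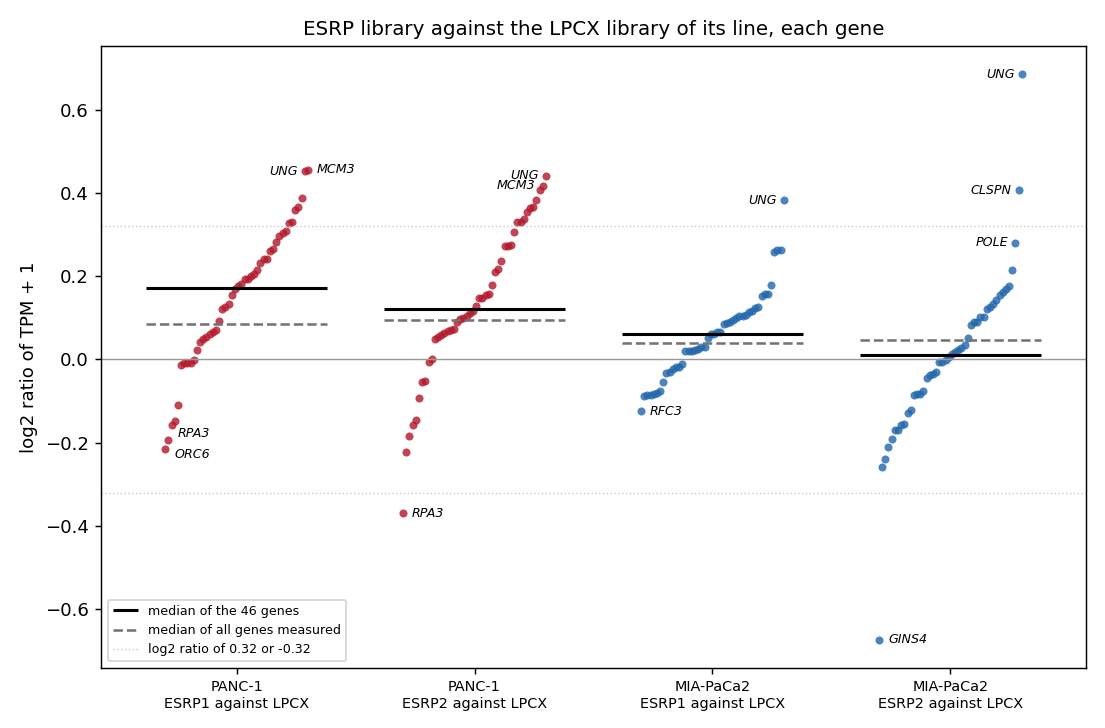
Log2 ratio of TPM + 1 of each of the 46 genes, ordered from low to high, in each ESRP library against LPCX of its line. Solid bars are the median of the 46 genes and dashed bars that of all genes measured. UNG is among the highest points in all 4 columns, and GINS4 is the lowest point in MIA-PaCa2 with ESRP2, at −0.67.

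**Figure D4:**
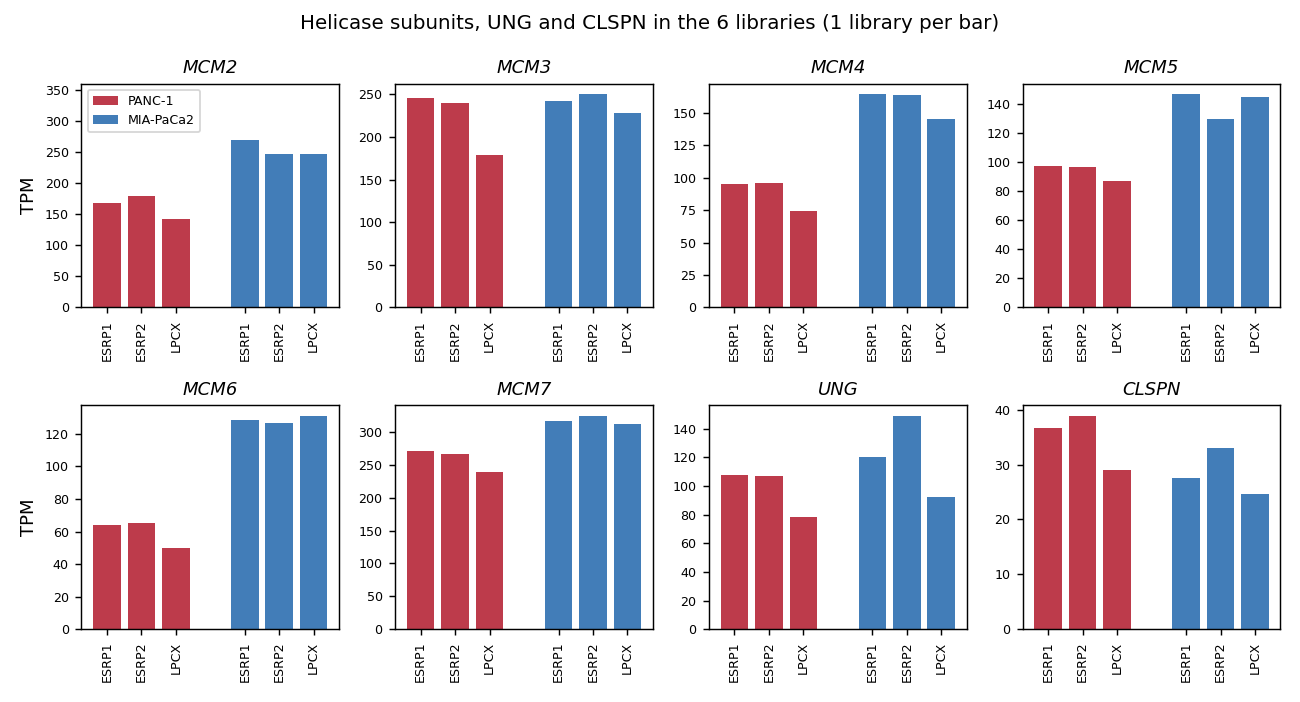
TPM of the MCM2 to MCM7 subunits, UNG and CLSPN in each library, 1 bar per library, red for PANC-1 and blue for MIA-PaCa2. In PANC-1 the LPCX bar is the lowest for every gene shown, and MCM3, MCM4, MCM7, UNG and CLSPN show the same in MIA-PaCa2.

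ESRP1 was then set against ESRP2. Over both lines 0 of 46 genes passed, where 0.00845% of all genes did, and only TK1 had an unadjusted p under 0.05, where 4.2% of all genes had one. TK1 was 202 TPM with ESRP1 and 185 TPM with ESRP2 in PANC-1, and 182 TPM with ESRP1 and 136 TPM with ESRP2 in MIA-PaCa2. The log2 difference was 0.27 ± 0.0925 (SE, limma adjusted p = 0.952). A difference above 0 was found in 27 genes, where 49% of all genes had one, and in 15 without MIA-PaCa2 ESRP2. An unadjusted p under 0.05 was held by 3 genes without PANC-1 ESRP1, by 5 without PANC-1 ESRP2 and by 0 without MIA-PaCa2 ESRP1 or MIA-PaCa2 ESRP2. In PANC-1 no gene was 0.32 or more apart, where 3.65% of all genes were higher with ESRP1 and 2.23% lower. In MIA-PaCa2 GINS4 and TK1 were that much higher with ESRP1, where 7.12% of all genes were, and POLE was lower, where 8.56% were. POLE was 77.4 TPM with ESRP1 and 99.6 TPM with ESRP2 there.

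Since ESRP1 and ESRP2 act on splicing, the transcripts of each gene were compared as shares of its TPM. Of the 46 genes, 18 have 1 transcript in the table, and 28 had at least 2 and reached 5 TPM in every library. A share moved by 10 points or more the same way in both lines in 2 of these 28 with ESRP1, where 2.62% of all such genes had one, and in 0 with ESRP2, where 3.6% did. The 2 genes were POLA1 and CCNE1. For POLA1 the longer form, NM_001330360, held 87.0% with ESRP1 against 47.1% with LPCX in PANC-1, and 91.9% with ESRP1 against 77.8% with LPCX in MIA-PaCa2. With ESRP2 it held 99.5% in PANC-1 and 82.5% in MIA-PaCa2, so it was above LPCX there too but by 4.67 points in MIA-PaCa2. The LPCX share in PANC-1 rests on 3.90 TPM of this form and 4.39 TPM of the other, NM_016937.

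The POLA1 forms differ by 18 coding bases, 6 codons, at the end of exon 1 (chrX:24693987-24694004, plus strand), and their other coding exons are the same in GENCODE 29 on GRCh38. Exon 1 also begins at different bases, 24693919 in the longer form and 24693947 in the other. The shares thus depend on reads at both ends of that exon. The sequence is shown from the start codon to the end of exon 1, with the 18 added bases in capitals.
POLA1 exon 1 coding end: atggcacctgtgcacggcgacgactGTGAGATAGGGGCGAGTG

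CCNE1 has 2 main forms, which differ in where their coding sequence starts. NM_001322262 held 13.6% with ESRP1 against 26.0% with LPCX in PANC-1, and 25.1% with ESRP1 against 35.9% with LPCX in MIA-PaCa2. With ESRP2 it held 23.0% in PANC-1 and 40.3% in MIA-PaCa2, on opposite sides of LPCX. The shares of both genes depend on how overlapping transcripts were split upstream, and they were not tested.

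Between the lines 1 of the 28 genes, UNG, had a share whose libraries lay 10 points or more apart, where 9.78% of all such genes had one. UNG makes a mitochondrial and a nuclear enzyme from its 2 start sites, the ones whose upstream DNA is printed above. The mitochondrial form, NM_003362, from the downstream start, held 9.45%, 11.6% and 12.6% in PANC-1 with ESRP1, ESRP2 and LPCX, and 42.1%, 37.2% and 39.8% in MIA-PaCa2. As levels these were 10.2, 12.4 and 9.84 TPM in PANC-1, and 50.7, 55.3 and 36.7 TPM in MIA-PaCa2. The nuclear form, NM_080911, was 97.4, 94.3 and 68.5 TPM in PANC-1, and 69.8, 93.5 and 55.4 TPM in MIA-PaCa2. The mitochondrial form was lower in every PANC-1 library, as the total was within each construct. The nuclear form overlapped between the lines, but within each construct it was higher in PANC-1. With ESRP1 and with ESRP2 the nuclear form was above LPCX in both lines, and the mitochondrial form was too, by less in PANC-1.

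**Figure D5:**
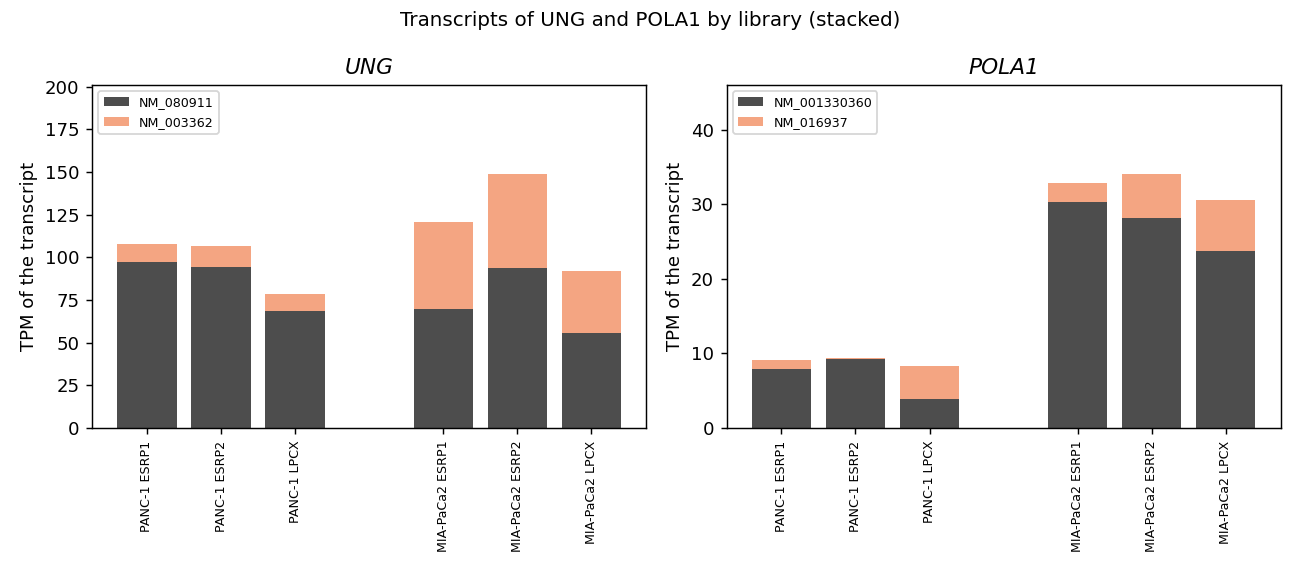
Stacked TPM of the 2 transcripts of UNG and of POLA1 in each library. The UNG form NM_003362 is 9.84 to 12.4 TPM in PANC-1 and 36.7 to 55.3 TPM in MIA-PaCa2, and the POLA1 form NM_016937 is largest relative to its gene in PANC-1 LPCX.

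Other genes of the pathway give the setting. Of 38 further replication factors, 18 were higher and 13 lower in PANC-1, with a median log2 difference of 0.13. Of all genes tested, 43.1% passed as higher and 35.6% as lower. These shares stand beside the counts of each list here and below, which are given as description only. The largest differences were those of POLD4, a small polymerase delta subunit, at 1.22, CDC7, the kinase that fires origins, at 1.08, GMNN, the geminin that restrains CDT1, at 0.94, UHRF1, which carries DNA methylation through replication, at −0.91, and ASF1B, a histone chaperone, at −0.91. CDC7 was 40.1, 39.7 and 40.4 TPM in PANC-1 and 18.2, 19.5 and 17.8 TPM in MIA-PaCa2. GMNN was 112, 114 and 128 TPM in PANC-1 and 64.6, 58.5 and 60.7 TPM in MIA-PaCa2, opposite to its partner CDT1.

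Of 33 genes of RB-E2F and G1 kinase control, 29 were tested, with 13 higher and 11 lower in PANC-1. E2F5, a repressive E2F, was higher by 2.17, and CDKN2C, an inhibitor of CDK4 and CDK6, by 1.63. MYC had a log2 difference of −1.72, with 106, 106 and 105 TPM in PANC-1 and 384, 331 and 342 TPM in MIA-PaCa2. SKP2, which targets cell cycle inhibitors for degradation, was lower, at −1.37, and the pocket protein RBL2 was at −1.35. CDKN2A and CDKN2B, both inhibitors of CDK4 and CDK6, were at most 0.0925 TPM in any library. The ratios above LPCX in both lines that led this list with ESRP1 were those of CDKN2D, RB1 and CDKN1A. CDKN1A, the p21 inhibitor, was 37.5 TPM with ESRP1 in MIA-PaCa2, against 15.7 TPM with LPCX, and 36.4 TPM with ESRP1 in PANC-1, against 31.6 TPM with LPCX. CDK6 was 30.0 TPM with ESRP2 in MIA-PaCa2, against 16.7 TPM with LPCX, and 15.5 TPM with ESRP2 in PANC-1, against 13.2 TPM with LPCX.

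Nucleotide synthesis had 8 higher and 11 lower of 21 genes in PANC-1, led by TYMP at 3.01 and CTPS1 at 1.39, and by TK2 at −1.26 and GART at −1.0. TYMP, which breaks down thymidine, was 28.4, 26.7 and 25.6 TPM in PANC-1 and 3.0, 2.31 and 2.10 TPM in MIA-PaCa2. Of 27 G2/M genes, 10 were higher and 13 lower. CDK1, the mitotic kinase, was higher by 1.06, while FOXM1, which drives G2/M genes, was lower, at −0.75. Of 23 replication stress and repair genes, 11 were higher and 8 lower. CHEK1, the checkpoint kinase activated through claspin, was higher by 0.85 in PANC-1. CHEK1 was 66.9 and 71.5 TPM in PANC-1 with ESRP1 and ESRP2, against 52.4 TPM with LPCX, and 36.5 and 36.8 TPM in MIA-PaCa2, against 30.7 TPM with LPCX. None of these genes passed for ESRP1 or ESRP2. In PANC-1 with ESRP1 the median log2 ratio was 0.02 for the other replication factors, 0.13 for RB-E2F and G1 kinase control, 0.12 for nucleotide synthesis, 0.15 for G2/M genes and 0.16 for replication stress and repair, beside 0.17 for the 46 genes and 0.09 for all genes measured.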

How the data were processed

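RNA was sequenced as 6 libraries, with a TruSeq mRNA kit per the labels' protocols. The deposited values are TPM per RefSeq transcript, made by the authors with Salmon on GRCh38 (hg38), per the submitters' processing notes, of versions that the sources used here leave out. The table's 67792 lines held 8664 repeats, which were dropped, leaving 59128 transcripts that were summed to 27408 genes. TPM keeps no depth, so the depth of each library is unknown. A column headed PaCo2 was taken as MIA-PaCa2 LPCX and one ending in ESRP12 as MIA-PaCa2 ESRP2, as the only samples left for them.

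Limma 3.58.1 in R 4.3.3, with trend, was fitted to log2(TPM + 1) of 11829 genes that reached 5 TPM in 2 or more libraries, using line and construct as terms, 2 residual degrees of freedom and Benjamini-Hochberg adjustment. Fold changes on this scale understate those of low genes. The spread behind these p-values came from how far the 2 lines disagreed about the constructs, moderated by limma over all genes. It did not come from repeats of a group, and nothing says that the libraries come from separate cultures. On simulated data with 200 genes changed between the lines by 2-fold, 76% were recovered, and 0% at 1.5-fold. For the mean of both constructs 73.5% and 0% were recovered. In the data 9319 of 11829 genes passed between the lines, far more than the 200 changed in the simulation. The adjustment was therefore less strict in the data, where POLD1 passed at −0.19. The simulated figures for the lines thus do not describe the power of that test.

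The 46 genes and all lists were chosen with earlier results of these data known. All 46 are reported. Since most genes passed between the lines, at most 5 genes of each other list with the largest line difference and 3 per construct with the largest smaller-of-2-lines ratio were candidates for naming, a restriction made after that count was seen. POLD2, POLE3 and POLE4 were named besides, as further subunits of DNA polymerases delta and epsilon. The alternatives were other pseudocounts, filters and scalings, coding transcripts only, fits without trend or construct, other thresholds, and each library left out. Fits were made with Python 3.11.15 scripts around R.

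A result on 1 gene of the other lists is not reported here.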

Additional observations from a re-analysis of the deposited data

Results flagged for a closer look

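For 6 genes both ESRP libraries of PANC-1 lay above LPCX and both ESRP libraries of MIA-PaCa2 lay below it. The share of all genes with this pattern is not given here, nor is a count of the reverse pattern. Whether 6 is more than other genes would show was therefore not tested. The difference of the log2 changes, PANC-1 minus MIA-PaCa2, was 0.30 for CDC6, 0.41 for MCM6, 0.20 for GINS1, 0.28 for RFC3, 0.19 for POLE2 and 0.40 for RPA2. In the limma interaction fit, which was added after seeing the data, the adjusted p was 0.969 for each of them. The unadjusted limma p was 0.0366 for CDC6, 0.00919 for MCM6, 0.142 for GINS1, 0.0842 for RFC3, 0.217 for POLE2 and 0.0120 for RPA2. The 6 genes were picked by the signs of the same ratios that enter this fit. Their unadjusted p-values are therefore not independent of that choice, and no conclusion is drawn from them. The 4 ratios of a gene rest on 2 LPCX libraries, 1 per line.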

How the results depend on the processing

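Between the lines, 36 to 41 of the 46 genes passed under every alternative tried, 13 to 15 higher and 22 to 26 lower in PANC-1, and no gene changed sign. Without a construct term ORC1, CDC25A, TK1, UNG and CLSPN did not pass. No gene passed for an ESRP construct under any alternative. Genes higher in PANC-1 by a log2 ratio of 0.32 or more numbered 3 with ESRP1 and 4 with ESRP2 when only coding transcripts were kept, and 3 genes were lower in MIA-PaCa2 with ESRP2 after median ratio scaling; the cause was not tested. At 1.1-fold, a step added after seeing the data, 25 genes were higher and 4 lower in PANC-1 with ESRP1, 22 higher and 5 lower with ESRP2, 8 higher in MIA-PaCa2 with ESRP1, and 9 higher and 9 lower with ESRP2. The shares of all genes under these alternatives are not given here, so the counts are not a result about the 46 genes. In PANC-1 the median log2 ratio of all genes measured was itself 0.09 with ESRP1 and 0.10 with ESRP2. A 5-point step gave 4 of 28 genes with a moved transcript share with ESRP1 and 1 with ESRP2, where 692 and 761 of all 6003 such genes had one. Median ratio scaling moved the median of all genes in MIA-PaCa2 with ESRP2 to −0.04. For the mean of both constructs, the genes with an unadjusted limma p under 0.05 numbered 1 to 12 with 1 library left out, the lowest without PANC-1 LPCX and the highest without MIA-PaCa2 LPCX. The cell line is a term of every ESRP fit, so each ESRP library is set beside LPCX of its line; the labels give no replicate numbers for a further block.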
